A study of Homo sapiens with 16 samples.

Results

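The integrated stress response and amino acid genes examined here are 41 named genes that are linked to the transcription factor ATF4 or serve amino acid synthesis, transport and tRNA charging. They were taken by name from a list chosen with earlier results of these data known. All 41 were present once in both deposited expression tables, of 22892 genes kept in the HiSeq table and 25606 in the NextSeq table. By role, 8 are regulators, 7 are effectors and feedback genes, 11 are enzymes of synthesis, 7 are transporters, and 8 are tRNA synthetases with the tRNA exporter XPOT.

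When amino acids run short or unfolded protein builds up, kinases phosphorylate the initiation factor eIF2, general translation slows, and the mRNA of ATF4 is translated more. ATF4 then binds with C/EBP partners near genes for amino acid synthesis, import and tRNA charging, and near DDIT3, which encodes the stress factor CHOP. Because ATF4 is controlled largely at translation, its own mRNA need not move when its target genes do. Tumour cells draw on this pathway to match amino acid supply to growth.

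All libraries came from HT1080, a human fibrosarcoma line that expresses a Tet repressor, in which one inducible transgene was recombined into a single genomic target site per clone. The study asked how XIST, the RNA that silences one X chromosome in female cells, acts at different genomic sites, one on Xq included. At autosomal sites, RNA was compared with and without induction of XIST by doxycycline (DOX) for 5 days. The HiSeq table has 6 libraries, namely 1 of the 8p XIST clone with No DOX, 2 of 8p XIST with DOX, and 1 each with DOX of 1p XIST, 12q XIST and 1p with the empty vector. The NextSeq table has 4 libraries, 1 with No DOX and 1 with DOX for each of the 1p XIST and 12q XIST clones. Per the methods, 1p and 8p derive from one Tet-repressor subclone and 12q from another, the medium held non-essential amino acids, and 2 clones of 8p were sequenced with DOX, so the 8p DOX libraries may not share 1 clone. The 1p No DOX and DOX libraries carry different replicate names in the labels. No vector library with No DOX was analysed here, so an effect of DOX itself and an effect of XIST cannot be told apart.

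Values are FPKM, fragment counts scaled by transcript length and by all mapped fragments, and do not reveal sequencing depth. At least 1 FPKM was reached by 10975 to 11399 genes per library. XIST was 3.38 FPKM in 8p No DOX and 99.0 and 89.7 in its DOX libraries, went from 3.75 to 67.6 in 12q and from 4.17 to 22.0 in 1p, and was 0.0705 in the vector library. All 10 markers of mesenchymal fibrosarcoma fixed as a list averaged at least 1 FPKM in both tables, with a summed level between 3260 and 6010 FPKM. Of the 4 blood and 2 liver markers, 1 blood marker reached an average of 1 FPKM, at 1.38 FPKM in the HiSeq table. The 4 epithelial markers stood apart in 1 library, 12q DOX of the NextSeq table, where EPCAM was 2.38, CDH1 1.38, ESRP1 0.719 and GRHL2 0.0291 FPKM. Their summed level was 4.51 there and 0.0 to 0.0497 in the other 9 libraries, 12q DOX of the HiSeq table included. That library also had 67 genes of at least 1 FPKM that were under 0.1 in the rest of its table, where the other 3 NextSeq libraries had 13 to 17. Every 12q ratio below rests on it, as no other 12q DOX library has a No DOX partner, and the part of these epithelial transcripts in the 12q ratios was not tested. A ratio below is log2 of FPKM + 1 with DOX minus the same with No DOX, which understates the change of genes with low values. A gene is past the fold at a ratio of 0.5 or more in either direction, 1.41-fold, in every DOX library of the clone. Ratios were taken within a table only, for genes averaging at least 1 FPKM in the libraries compared. The 1p, 12q and vector comparisons rest on 1 library per condition and have no replicate check.

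The sequence that ATF4 binds with C/EBP partners was looked for in the members' promoters. As examples, 3 stretches are shown, from genes of synthesis, effectors and tRNA charging. RefSeq windows from 250 bases before to 50 after each transcript start (build GRCh38.p14) matched 36 of the 41 members, and PSPH, SHMT2, PYCR1, NUPR1 and GPT2 had no entry. The letters TGATGNAA on either strand were found in 13 of the 36 (36.1 %) and in 4.46 % of all 27305 genes. By branch they were found in 3 of 7 regulators, 1 of 7 effectors, 1 of 7 synthesis enzymes, 4 of 7 transporters and 4 of 8 synthetases. ASNS and CHAC1 are thus the only matches of their branches and do not stand for them, and no transporter is shown. The cyclic AMP response element TGACGTCA, which does not overlap these letters as a word, was found in 1 of the 36, PPP1R15A (2.78 %), and in 2.25 % of all genes. Capitals below mark the match, which in CHAC1 and AARS lies on the opposite strand and is printed as its reverse complement. ASNS is shown from chr7:97872413-97872532 on the minus strand, with the match 68 bases before the start. CHAC1 is from chr15:40953221-40953340 on the plus strand, with the match 209 bases before it. AARS is from chr16:70289630-70289749 on the minus strand, with the match 187 bases before it.
ASNS: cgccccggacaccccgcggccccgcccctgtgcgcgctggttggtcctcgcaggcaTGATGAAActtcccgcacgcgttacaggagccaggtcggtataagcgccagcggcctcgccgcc
CHAC1: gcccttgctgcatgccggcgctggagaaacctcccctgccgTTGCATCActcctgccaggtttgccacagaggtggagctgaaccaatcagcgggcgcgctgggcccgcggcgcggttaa
AARS: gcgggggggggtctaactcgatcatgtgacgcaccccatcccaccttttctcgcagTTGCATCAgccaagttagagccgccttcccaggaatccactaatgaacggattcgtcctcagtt
A match describes these letters only, and no binding was measured.

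With DOX, the members as a group were higher in the 8p and 12q clones and lower in the 1p clone. In 8p their median ratio was 0.22 beside -0.06 for all 11195 genes with a ratio. In 12q it was 0.16 beside -0.02 over 11349 genes, and in 1p it was -0.14 beside 0.0 over 11075 genes. The 12q values come from the DOX library with epithelial markers. In 1p, 34 of the 40 members with a ratio were lower, beside 50.0 % of all genes. In 12q 32 of 40 were higher, beside 44.6 % of all genes. In 8p, 26 of 41 were higher in both DOX libraries, beside 36.6 % of all genes. There 8 were lower in both, beside 51.8 % of all genes, and 7 differed in sign. SHMT2 has no 1p ratio because the 1p No DOX library lists it at 0, the only gene at 0 there that reached 10 FPKM elsewhere in the table, and SLC6A9 was below the 12q filter.

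**Figure D1:**
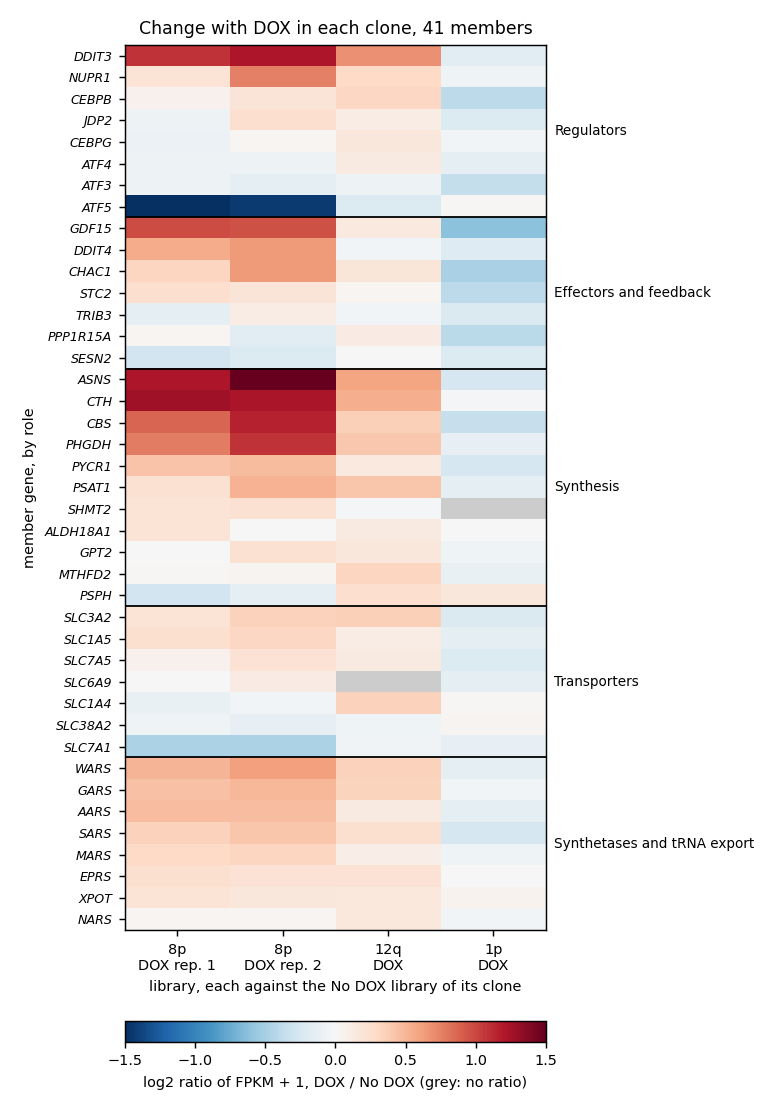
Log2 ratios of FPKM + 1 with DOX against No DOX for the 41 members (rows, by role and by their 8p ratio) in the 2 libraries of 8p, in 12q and in 1p (columns). Red is higher and blue lower with DOX, and grey marks no ratio. All 8 of the synthetase branch are above 0 in 8p and 12q. Of the 11 synthesis enzymes, 8 are above 0 in both 8p libraries and 10 in 12q, while PSPH is below 0 in 8p. The effectors are blue in 1p, from -0.62 to -0.19.

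Past the fold in 8p were 8 members higher (4.27 % of all genes) and 1 lower (7.5 % of all genes). The 8 were DDIT3, DDIT4, ASNS, PHGDH, CTH, CBS, WARS and GDF15, and the 1 was ATF5. By limma, 13 members rose and 2 fell in 8p at an adjusted p under 0.05, beside 12.9 % and 22.4 % of all genes tested. This fit has 1 residual degree of freedom and assumes that the single No DOX library varies like the DOX pair. Its p-values rest on the spread of that pair, which limma adjusts toward the spread of all genes. With no filter on low values none of the 15 members was called, with adjusted p from 0.0923 to 0.111 in limma. In 12q, 3 members were past the fold higher, DDIT3, ASNS and CTH (0.828 % of all genes), and 0 lower (3.09 %). In 1p, 0 were past the fold higher (0.388 % of all genes) and 1 lower, GDF15 (0.731 %).

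Among the regulators, ATF4 mRNA (chr22:38246514-38248637 on hg18) moved little with DOX. It was 200 FPKM in 8p No DOX and 189 in both DOX libraries, 116 and 127 in 12q, and 120 and 110 in 1p. With DOX in the HiSeq table it was 253 in 1p XIST, 236 in 12q XIST and 114 in the vector library. The 8p ratio was -0.08 in both DOX libraries (SE 0.083, adjusted p = 0.485 in limma), which was not called.

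DDIT3 (chr12:56196637-56200567) encodes CHOP, a factor of the later stress response, and moved most with DOX among the regulators that were higher. Its level went from 6.36 to 14.5 and 16.0 FPKM in 8p, from 11.0 to 18.4 in 12q, and from 11.5 to 10.2 in 1p. Both 8p DOX libraries stood above every other HiSeq library, where 1p XIST DOX had 4.93, the vector 7.59 and 12q XIST DOX 10.9 FPKM. The 8p rise was 1.14 on the log2 scale (SE 0.09, adjusted p = 0.00435 in limma), the 12q ratio was 0.69 and the 1p ratio -0.17. DDIT3 overlaps MARS by 69 bases on hg18, so a few shared fragments could be assigned to either.

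ATF5 (chr19:55123770-55129005), a factor that like ATF4 is controlled at translation, went the other way in 8p. It fell from 12.0 to 3.64 and 3.79 FPKM there, a log2 ratio of -1.46 (SE 0.079, adjusted p = 0.00227 in limma). It was 9.14 and 7.79 in 12q and 16.0 and 16.2 in 1p. The vector library, at 3.94, was near the 8p DOX libraries, while 1p XIST DOX had 17.1 and 12q XIST DOX 12.0 in the same table. The gene overlaps IL4I1 by 805 bases and NUP62 by 1031 bases on hg18. The remaining regulators ATF3, CEBPB, CEBPG, NUPR1 and JDP2 had 8p ratios from -0.11 to 0.48, and none of these was called. In 1p, 7 of the 8 regulators were lower, with CEBPB, a C/EBP partner, at -0.39 and ATF3, an early stress factor, at -0.36.

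The effectors and feedback genes damp or carry out the response, and GDF15, a secreted stress cytokine, had the highest average FPKM of the 7. GDF15 (chr19:18357967-18360986) was 127 FPKM in 8p No DOX and 251 and 247 with DOX, 178 and 197 in 12q, and 72.7 and 47.1 in 1p. Its 8p rise was 0.96 (SE 0.083, adjusted p = 0.0051 in limma), and its 1p ratio of -0.62 was the only one past the fold in that clone. The 12q ratio was 0.15. Among HiSeq libraries, 1p XIST DOX had 54.9 FPKM, below the vector at 128 and 12q XIST DOX at 176, so 1p XIST with DOX was the lowest library in both tables.

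DDIT4, an inhibitor of the growth kinase mTORC1, was 6.97 FPKM in 8p No DOX and 10.8 and 11.4 with DOX. It rose by 0.60 on the log2 scale in 8p (SE 0.081, adjusted p = 0.00845 in limma) and had ratios of -0.04 in 12q and -0.19 in 1p. The glutathione-degrading enzyme CHAC1 had an 8p ratio of 0.48 (adjusted p = 0.0534 in limma), 0.18 in 12q and -0.49 in 1p, where it was 9.99 and 6.83 FPKM. All 7 effectors were lower in 1p, from -0.62 to -0.19 with a median of -0.39. They include PPP1R15A, which recruits the phosphatase that restores eIF2, at -0.40, the secreted glycoprotein STC2 at -0.39, the pseudokinase TRIB3 at -0.22 and SESN2, a leucine sensor, at -0.21. In 8p, 4 of the 7 effectors were higher in both DOX libraries and 1 was lower, beside 36.6 % and 51.8 % of all genes. Their 8p median was 0.22. There STC2 had a ratio of 0.22, TRIB3 -0.02, PPP1R15A -0.07 and SESN2 -0.25, and none of these was called. In 12q their median was 0.03, and no effector was past the fold. SESN2 lies 11.1 Mb from MACF1, the host gene of the 1p integration, while the other 6 effectors are on other chromosomes.

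The synthesis enzymes held the 2 largest rises in 8p, ASNS and CTH, and had the highest branch median in 12q. Of the 11, 5 rose in 8p by limma and 0 fell, beside 12.9 % and 22.4 % of all genes. Their 8p median was 0.37, which was 0.226 without DOX replicate 2. In 12q, 10 of 11 were higher, with a median of 0.32, and in 1p 8 of 10 were lower, with a median of -0.12. ASNS, which makes asparagine and carries the promoter match shown above (chr7:97319364-97339790 on hg18), was 12.9 FPKM in 8p No DOX and 31.2 and 42.0 with DOX. It went from 37.7 to 57.3 in 12q and from 49.6 to 41.4 in 1p. In the other HiSeq libraries it was 27.3 in 1p XIST DOX, 31.6 in 12q XIST DOX and 12.9 in the vector. The 8p No DOX library was thus at the vector's level, and the first 8p DOX library at that of 12q XIST DOX. The rise in 8p was 1.42 on the log2 scale (SE 0.178, adjusted p = 0.00769 in limma), the ratio 0.59 in 12q and -0.25 in 1p.

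CTH (chr1:70649488-70678122) and CBS (chr21:43346369-43369541) form the pathway that turns homocysteine into cysteine, and both rose in 8p from low levels. CTH was 1.83 FPKM with No DOX and 5.80 and 5.59 with DOX, a rise of 1.24 (SE 0.082, adjusted p = 0.00294 in limma). It went from 2.43 to 4.02 in 12q, a ratio of 0.55, and was 3.03 and 2.96 in 1p. No other HiSeq library reached the 8p DOX level of CTH, since 12q XIST DOX had 2.17, 1p XIST DOX 1.41 and the vector 0.916 FPKM.

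CBS was 1.87 FPKM in 8p No DOX, below all other libraries of its table, and 4.26 and 5.40 with DOX. It rose by 1.02 (SE 0.135, adjusted p = 0.00822 in limma). In 12q it was 6.29 and 8.36, a ratio of 0.36, and in 1p 5.23 and 3.93, a ratio of -0.34. With DOX, 1p XIST at 6.58 and 12q XIST at 7.35 stood above the 8p DOX libraries in the HiSeq table, and the vector had 3.80 FPKM.

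PHGDH (chr1:120055941-120088372), the entry enzyme of serine synthesis, was 19.4 FPKM in 8p No DOX and 33.6 and 42.1 with DOX. It rose by 0.92 (SE 0.143, adjusted p = 0.0113 in limma). It went from 36.1 to 48.2 in 12q, a ratio of 0.41, and from 44.7 to 40.9 in 1p, a ratio of -0.12. In the other HiSeq libraries it was between 27.4 and 35.8 FPKM. The next enzyme of the same route, PSAT1, had ratios of 0.37 in 8p (adjusted p = 0.088 in limma), 0.42 in 12q and -0.15 in 1p, and the last, PSPH, -0.22, 0.25 and 0.17. The route to serine was therefore not uniform in 8p. PYCR1, which makes proline in mitochondria, rose by 0.45 in 8p (adjusted p = 0.0149 in limma), while SHMT2, MTHFD2, ALDH18A1 and GPT2 had 8p ratios from 0.03 to 0.22 and were not called.

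None of the 7 transporters rose in 8p by limma, beside 12.9 % of all genes. At an unadjusted p under 0.05, 2 of the transporters (28.6 %) were higher, beside 18.3 % of all genes. Their median was 0.05, and SLC7A1, an importer of cationic amino acids, fell by 0.47 (SE 0.076, adjusted p = 0.0123), from 24.2 to 17.2 and 17.1 FPKM. The partners of the leucine exchanger, SLC3A2 and SLC7A5, had 8p ratios of 0.28 and 0.14, neither called, with 0.36 and 0.14 in 12q and -0.22 and -0.21 in 1p. The glutamine carrier SLC1A5 had 0.28, 0.11 and -0.15 in the same order. SLC38A2, a starvation-regulated carrier, and SLC1A4, which carries alanine and serine, lay between -0.10 and 0.04 in 8p and 1p, and SLC1A4 had 0.35 in 12q. The glycine carrier SLC6A9 was the member of lowest average level in both tables and lies 4.73 Mb from MACF1. Its 1p ratio was -0.13, from 3.17 to 2.82 FPKM.

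The tRNA synthetases moved by little, but in 8p and 12q in one direction. In 8p all 8 members of the branch were higher in both DOX libraries, with ratios from 0.03 to 0.56 and a median of 0.35. SARS, WARS, AARS, GARS and MARS, which charge tRNAs with serine, tryptophan, alanine, glycine and methionine, rose by limma. These are 5 of the 8, beside 12.9 % of all genes called higher. WARS was 30.3 FPKM with No DOX and 43.5 and 46.7 with DOX, a rise of 0.56 (SE 0.087, adjusted p = 0.0114 in limma). For AARS, whose promoter match is printed above, the level went from 49.0 to 67.6 and 67.8, by 0.46 (SE 0.079, adjusted p = 0.014). NARS, EPRS and XPOT, with ratios of 0.03, 0.23 and 0.19, were not called. In 12q all 8 were again higher, from 0.10 to 0.35 with a median of 0.19. In 1p 7 of the 8 were lower, from -0.25 for SARS to -0.01 for EPRS, with XPOT at 0.05 and a median of -0.06.

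**Figure D2:**
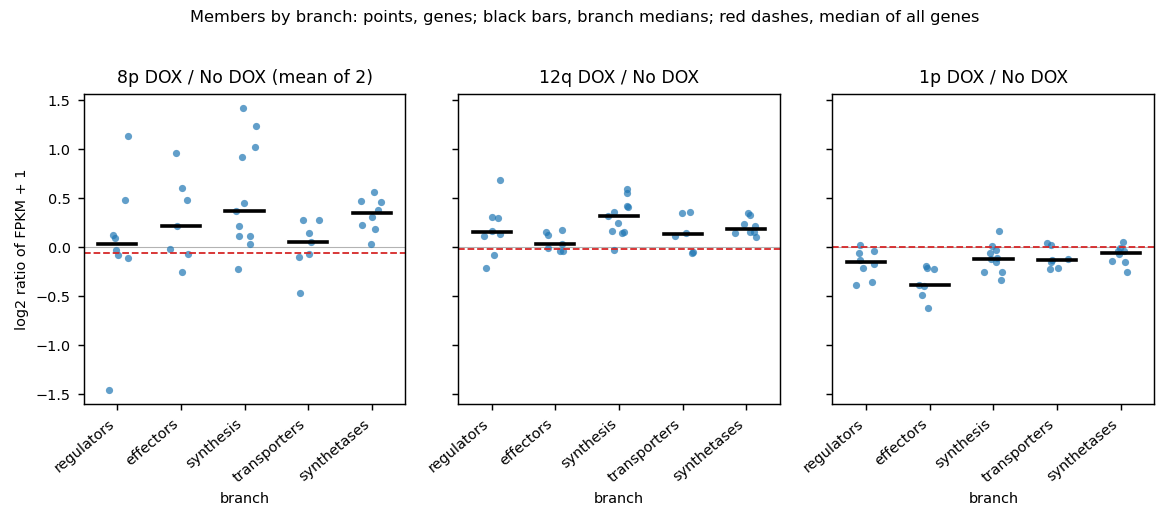
Log2 ratios of FPKM + 1 (vertical axis) for the members of each branch (horizontal axis) in 8p (mean of 2 DOX libraries), 12q and 1p. Points are genes, black bars branch medians and red dashes the median of all genes. Synthesis and synthetases have medians of 0.37 and 0.35 in 8p and of 0.32 and 0.19 in 12q, the 8p order turning without DOX replicate 2, and effectors have -0.39 in 1p.

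The branches therefore differed in where the clones parted. The 8p and 12q ratios share no library, and in both the medians were highest for synthesis and the synthetases, while the 1p ratios were lowest for effectors and nearest to 0 for synthetases. In 8p this order did not hold without DOX replicate 2, where synthetases had 0.324, effectors 0.253 and synthesis 0.226. Of 39 members with a ratio in all 3 clones, 23 were higher in both 8p DOX libraries and in 12q and lower in 1p (59.0 %), beside 7.51 % of 9768 genes. These were 7 of 8 synthetases, 7 of 10 synthesis enzymes, 3 of 8 regulators, 3 of 7 effectors and 3 of 6 transporters. The reverse pattern was shown by 2 members, ATF5 and SLC38A2 (5.13 %), beside 14.3 % of all genes. Across the 39 members the 8p and 12q ratios had a Spearman correlation of 0.60, beside 0.16 over all genes. The correlation was 0.05 between 1p and 12q, beside 0.19, and -0.29 between 8p and 1p, beside 0.03. Genes are not independent replicates, and the members were chosen with earlier results of these data known. The shares and the correlations of the members are therefore given as a description only and cannot support the pattern. No member lies on chromosome 8, the 5 on chromosome 12 are 45.6 to 63.6 Mb from the 12q integration, and SESN2 and SLC6A9 are the members within 30 Mb of that in 1p. The difference in DOX effect between 1p and 12q has no residual degrees of freedom, and that between 8p and either, with ratios from separate tables, was not tested.

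**Figure D3:**
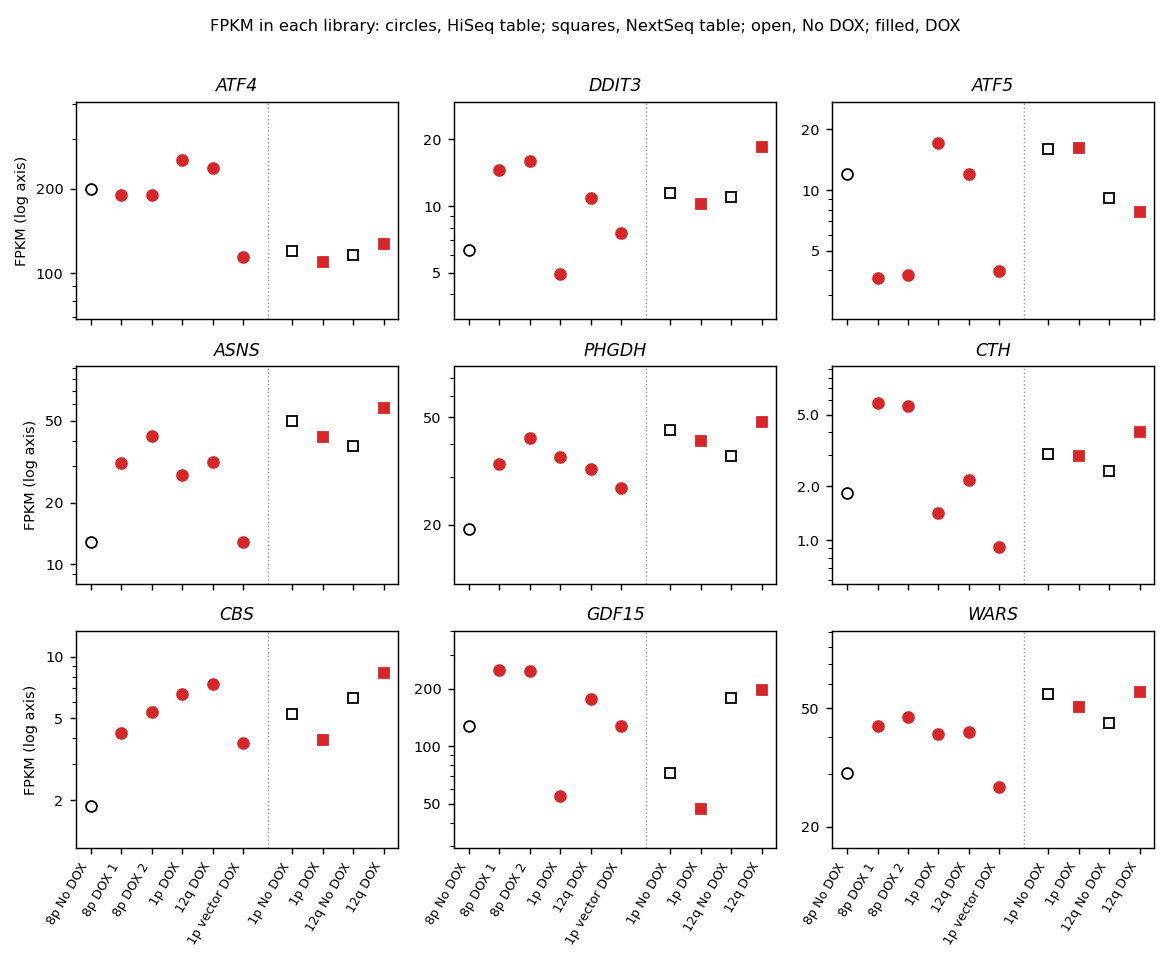
FPKM (vertical log axis) of ATF4, DDIT3, ATF5, ASNS, PHGDH, CTH, CBS, GDF15 and WARS in each of the 10 libraries (horizontal axis), with 1 point per library. Circles are HiSeq and squares NextSeq libraries, open with No DOX and filled with DOX. The open 8p circle lies lowest of its table for PHGDH and CBS. ATF4 spans 114 to 253 FPKM there, a 2.21-fold range beside 2.17-fold for PHGDH.

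The No DOX libraries stood at opposite ends for these genes. These ranks use the 4 libraries behind the 1p and 12q ratios, so they partly restate those ratios. Among NextSeq libraries, 12q No DOX was the lowest of the 4 libraries for 21 of the 41 members (51.2 %), beside 18.9 % of genes averaging at least 1 FPKM, and 12q DOX the highest for 18 (43.9 %, beside 27.3 %). 1p No DOX was the highest for 17 members (41.5 %, beside 21.6 %), and 1p DOX the lowest for 13 (31.7 %, beside 24.5 %). For ASNS, PHGDH and WARS, 12q thus lay below 1p with No DOX and above 1p with DOX.

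A fit of the DOX effect shared by 1p and 12q, with clone as a term, called none of the members in limma, with a smallest adjusted p of 0.702. At an unadjusted p under 0.05 it gave 1 member higher (2.44 %) and 0 lower, beside 0.834 % and 5.71 % of all genes. It called 0.0 % of all genes higher and 0.00877 % lower. The fit takes the disagreement of the clones as its error, and each coefficient is the mean of the 1p and 12q differences on the log2 scale. Counts of signs thus restate the ratios above. All 7 effectors had a coefficient below 0, beside 6162 of all 11397 genes. Of the 11 synthesis enzymes, 10 had one above 0, beside 5235 of all genes. These 10 include SHMT2, whose coefficient of 3.28 rests on the 0 listed in 1p No DOX.

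The 1p clones with and without XIST, both with DOX, differed in most members. Against the vector library, 35 of 41 members were higher with XIST, beside 58.5 % of all genes. The median of the members was 0.66 beside 0.09 for all 11029 genes. Past the fold were 23 higher (17.7 % of all genes) and 3 lower (9.93 %). The branch medians were 1.14 for transporters, 1.05 for effectors, 0.74 for regulators, 0.66 for synthesis and 0.36 for synthetases, an order not seen with DOX in any of the 3 clones. DDIT4 had 22.6 FPKM with XIST and 1.93 with the vector, a log2 difference of 3.01, and CHAC1 had 5.34 and 0.310. SLC7A5 had 94.0 and 21.1, ATF5 17.1 and 3.94, and ATF4 253 and 114 FPKM. The 3 lower members were GDF15 at 54.9 and 128, PPP1R15A at 20.0 and 46.5, and DDIT3 at 4.93 and 7.59 FPKM.

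**Figure D4:**
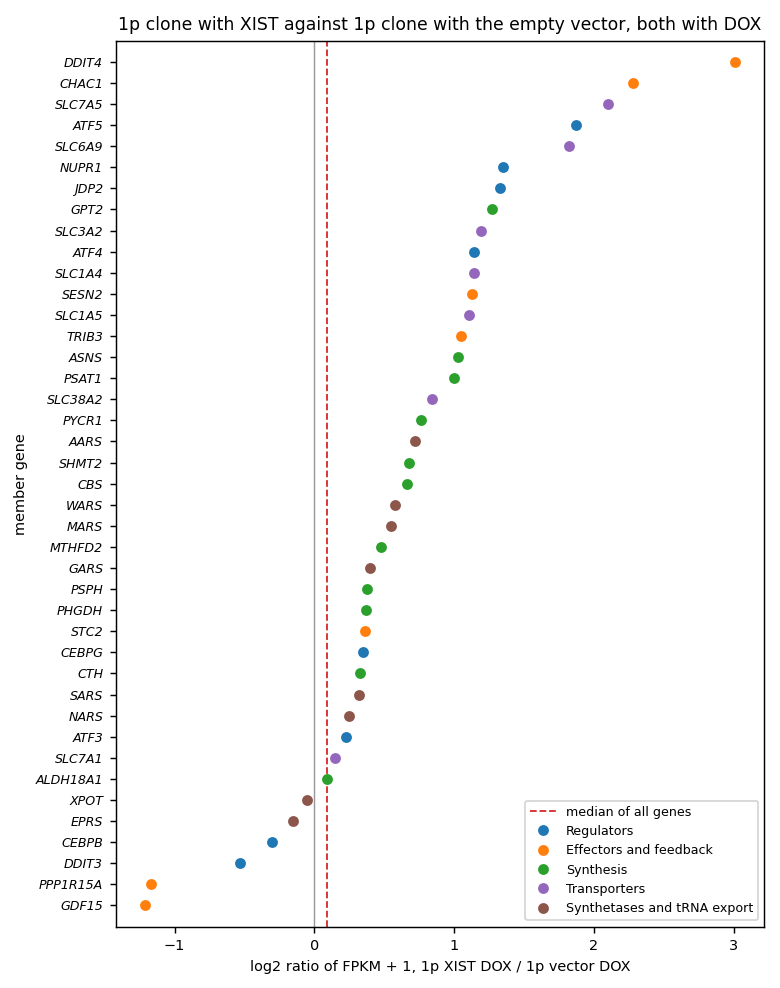
Log2 ratio of FPKM + 1 (horizontal axis) of 1p XIST DOX to 1p vector DOX for each member (vertical axis, sorted), coloured by branch, with 1 library each. The red dashes mark the median of all genes, 0.09. DDIT4 lies at 3.01 and GDF15 at -1.21, and all 7 transporters and 11 synthesis enzymes lie above 0.

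The vector library was the lowest of the 6 HiSeq libraries for 30 of the 41 members (73.2 %), beside 42.6 % of all genes. It also had the lowest summed level of all genes, 318000 FPKM, where the others had 329000 to 409000. After the libraries were rescaled to the same median gene, 24 members were past the fold in place of 26. With 1 clone and 1 library each, XIST, clone and library cannot be told apart.

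Set against the DOX libraries of other clones, the 8p DOX libraries differed in few members beyond the spread. In limma, 1 member was called higher, STC2 (1.01 % of all genes), and 0 lower (0.396 %), while 12 were higher (29.3 %) and 2 lower (4.88 %) at an unadjusted p under 0.05, beside 20.4 % and 4.96 % of all genes. STC2 was 15 FPKM in 8p No DOX and 18.1 and 17.3 with DOX, but 6.07 in 1p XIST DOX, 4.51 in the vector and 6.74 in 12q XIST DOX. The difference was 1.48 on the log2 scale (SE 0.188, adjusted p = 0.0346 in limma), and 8p No DOX was also above all 3 libraries of other clones. NUPR1, a stress-induced chromatin protein, was at the other extreme, with 2.04 to 4.13 FPKM in the 8p libraries and 10.9 to 29.4 in the others, a difference of -2.11 (SE 0.408, adjusted p = 0.0698 in limma). The median difference was 0.35 for members beside 0.19 for all genes. The number of members called was 0 without 8p DOX replicate 1, without replicate 2 or without 1p XIST DOX, 3 without the vector and 5 without 12q XIST DOX, while the difference of STC2 stayed between 1.34 and 1.58 in these fits.

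Further genes of the pathway were kept as lists beside the members. For the counts called in 8p below, the shares over all genes were 12.9 % higher and 22.4 % lower. The eIF2 kinases, subunits and exchange factors, 13 genes, had medians of 0.02 in 8p, 0.0 in 1p and 0.07 in 12q, with none past the fold and 2 called lower in 8p. Of 12 other ATF4-linked genes, 11 had an 8p ratio, with a median of 0.05, 3 of which were past the fold higher. Limma called 4 higher and 1 lower in 8p. The gene called lower was SQSTM1, at -0.45 (adjusted p = 0.0144 in limma), which had -0.38 in 12q and -0.03 in 1p. The medians of the list were 0.08 in 12q and -0.08 in 1p. INHBE, an activin subunit, was 1.24 FPKM in 8p No DOX and 4.91 and 5.24 with DOX, 9.19 and 12.3 in 12q, and 16.5 and 11.2 in 1p. Its ratios of 1.44, 0.39 and -0.52 ordered the clones as the members did, and the 8p rise had an adjusted p of 0.00269 in limma. PCK2, a mitochondrial enzyme that makes phosphoenolpyruvate, went from 9.60 to 16.0 and 19.7 FPKM in 8p (0.82, adjusted p = 0.012).

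The synthetases outside the members had medians at or near 0. Among 13 other cytosolic synthetases limma called 4 higher and 3 lower in 8p, with a median of 0.0, and CARS, which charges cysteine, was past the fold at 0.59, from 34.1 to 50.1 and 53.7 FPKM. The 17 mitochondrial synthetases had a median of -0.03, with 0 called higher and 2 lower, and CARS2 was past the fold at -0.61. In 12q and 1p no gene of these lists was past the fold. For the IRE1 and ATF6 arms of the unfolded protein response, 14 genes, the median was 0.03 in 8p, 0.11 in 12q and -0.06 in 1p. In 12q, 11 of the 14 were higher (78.6 %, beside 44.6 % of all genes). In 1p, 9 of 13 were lower (69.2 %, beside 50.0 %). The opposite directions in 12q and 1p were thus not limited to the members. XBP1, the factor spliced by IRE1, went from 20.2 to 33.0 and 34.6 FPKM in 8p (0.72, adjusted p = 0.00674 in limma). Its ratios were 0.29 in 12q and -0.25 in 1p. The endoplasmic reticulum proteins CRELD2 (-0.56, adjusted p = 0.00845 in limma) and SDF2L1 (-0.54, adjusted p = 0.00945 in limma) fell in 8p. SDF2L1 was also past the fold lower in 1p, from 19.4 to 11.1 FPKM (-0.75). The chaperone HSPA5, which binds unfolded protein, had ratios of -0.01 in 8p, 0.33 in 12q and -0.19 in 1p.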

How the data were processed

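Polyadenylated RNA of 10 libraries was measured by paired-end RNA-seq. Per the submitters' notes and the methods, the authors aligned reads to hg18 with TopHat and Bowtie and estimated FPKM with Cufflinks, and versions are not given in the sources used here. The deposited FPKM, corrected by Cufflinks for transcript length and total fragments, give no read counts, so depth is unknown and no interval based on it is given. The 6 ChIP-seq libraries are not analysed here. Lines with a repeated symbol (735 HiSeq, 878 NextSeq), symbols turned into dates (26 in each) and 2 NextSeq lines without a value were left out.

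Groups came from the labels. Ratios used log2(FPKM + 1), a filter of an average of 1 FPKM over the libraries compared, and a fold of 0.5. Genes listed at exactly 0 in a library compared got no ratio, but stayed in the limma fits. Limma 3.58.1 in R 4.3.3 (lmFit, eBayes with trend, Benjamini-Hochberg over all genes tested, adjusted p under 0.05) was used where a group had 2 or more libraries or clone was a term, with 1 residual degree of freedom for 8p and for the shared effect and 3 against other clones. The fits were run on simulated data with independent noise of equal size in all libraries of a gene. Such data do not test the case of a single No DOX library or of clones that disagree. Python 3.11.15 (pandas 2.3.3, numpy 2.4.6, scipy 1.17.1, matplotlib 3.10.9) served for all else. Promoter windows came from RefSeq (GRCh38.p14), and older symbols were matched through its synonyms and chromosome.

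The members and lists were chosen with earlier results of these data known. Named in every library were ATF4, DDIT3 and ASNS and, in each DOX contrast, the members past the fold, up to 6 a direction by size. In other lists, genes past the fold were named, up to 2 a direction. A gene that this rule would name is not reported here. Other genes were named after their values were seen, to account for a count or a role. Alternatives were other pseudocounts, filters, scalings, thresholds and fits, and leaving out libraries.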

Additional observations from a re-analysis of the deposited data

Results flagged for a closer look

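Opposite directions with DOX in separate clones marked the results below, where every library of one clone moved up and that of the other down by more than 0.1 on the log2 scale. Single members were listed only where they were also past the fold in either clone. None of these differences was tested, since 1p and 12q have 1 library per condition. No group had the 4 samples needed to look for a library far from its group.

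For all members together, the median ratio differed by 0.37 between 8p (0.22) and 1p (-0.14), and by -0.31 between 1p and 12q (0.16). Effectors and feedback genes had the widest gap between 8p and 1p, 0.61, from 0.22 to -0.39. Synthesis enzymes differed by 0.49 between 8p and 1p and by -0.44 between 1p and 12q. For regulators the gap between 1p and 12q was -0.30, and for transporters it was -0.25.

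Among single members, the 8p ratio exceeded the 1p ratio by 1.67 for ASNS, 1.58 for GDF15, 1.35 for CBS, 1.31 for DDIT3, 1.05 for PHGDH, 0.79 for DDIT4 and 0.71 for WARS. The 1p ratio minus the 12q ratio was -0.86 for DDIT3, -0.84 for ASNS and -0.76 for GDF15. The 8p ratios come from the HiSeq table and those of 1p and 12q from the NextSeq table, so table and clone cannot be told apart for 8p, and the 12q ratios rest on the DOX library with epithelial markers.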

How the results depend on the processing

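No paired analysis was possible because fewer than 2 replicate numbers recur between any groups set side by side. In 8p, the 15 members called by limma became 0 with no filter on low values, and stayed between 15 and 20 under the other 5 alternatives. The 9 members past the fold became 16 at a fold of 0.3 and 4 at a fold of 1, and 9 to 12 without either DOX replicate. The median of 8p regulators turned to -0.054 under the filter of 5 FPKM, and was 0.112 without DOX replicate 1 and -0.078 without replicate 2. That of transporters was 0.119 without DOX replicate 1 and -0.014 without replicate 2, and that of synthesis fell from 0.371 to 0.226 without replicate 2. Under the filter of 5 FPKM, 8p synthetases (0.347) stood above synthesis (0.297), and the 8p median of effectors fell from 0.222 to 0.1. In 1p the 1 member past the fold became 2 with a pseudocount of 0.1, 7 at a fold of 0.3, 0 at a fold of 1, and 2 with genes listed at 0 kept, an alternative added after seeing the data that counts SHMT2. In 12q the 3 members became 13 at 0.3 and 0 at 1. Against the vector, 26 became 17 at a fold of 1. The 1 member called in 8p against other clones became 0 with no filter, 2 after rescaling, 2 with all 3 8p libraries, and 0 to 5 when a library was left out. The 0 members of the shared fit stayed 0 under all 4 alternatives. Rescaling moved the median of all genes in the comparison with other clones from 0.19 to 0.0, from 0.09 to -0.01 against the vector, and by less elsewhere. Depth is unknown, so no limit from counting can be given for the low members CTH, CBS or SLC6A9.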

Other observations

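Outside the 41 members, TYMS, which makes thymidylate, was 188 FPKM in 8p No DOX and 124 and 115 with DOX, a fall of 0.65 on the log2 scale (adjusted p = 0.00877 in limma). Its ratios were 0.03 in 1p and -0.02 in 12q. AMT, a subunit of the glycine cleavage system, was 0.80 FPKM in 8p No DOX and 1.96 and 2.21 with DOX (0.78, adjusted p = 0.00819). Over the 21 other amino acid and folate enzymes with an 8p ratio, limma called 5 higher and 7 lower, beside 12.9 % and 22.4 % of all genes. Their median was -0.11. In 12q, GLDC, the decarboxylase of the glycine cleavage system, went from 0.479 to 2.22 FPKM (1.12) and the proline enzyme PYCRL from 4.52 to 2.57 (-0.63). In the same DOX library EPCAM went from 0.0 to 2.38 and CDH1 from 0.0 to 1.38 FPKM, and the part of epithelial transcripts in the GLDC value was not tested.

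The amino acid transporters outside the members had a median of -0.24 over 10 genes in 8p. Limma called 2 higher and 3 lower, beside 12.9 % and 22.4 % of all genes. SLC7A2, a carrier of cationic amino acids like SLC7A1, was past the fold lower, from 11.0 to 7.04 and 6.98 FPKM (-0.58, adjusted p = 0.00807). The cystine importer SLC7A11 went from 1.24 to 2.08 and 2.46 in 8p (0.54, adjusted p = 0.0208), with ratios of 0.44 in 12q and -0.18 in 1p.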
